A study of Mus musculus with 11 samples.

Results

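The genes described here are 40 interferon-inducible and antigen presentation genes, measured by RNA sequencing in mouse muscle stem cells (satellite cells). They were chosen by symbol from 48709 genes of the count table: interferon regulatory and other transcription factors, viral RNA sensors, antiviral effectors, interferon-inducible GTPases and MHC class I genes. The choice was made with earlier results of these same libraries known, so the changes below describe the genes and are not independent evidence about the set. Each of the 40 symbols matched 1 row of the table, and all 40 had counts high enough to be tested.

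The cells came from Tg:Pax7-nGFP mice of the C57BL/6 strain, in which a nuclear green fluorescent protein marks cells that use the Pax7 gene, and were sorted by fluorescence from pectoral, forelimb and hindlimb muscles. All 3 groups share this transgene, strain and tissue, and no age or sex is given. The intact muscle was fixed for T0 (0.5% paraformaldehyde, 1 h, 4°C), so that cells were fixed in place. In T3, cells went through the standard isolation and were fixed for 30 min on ice in 0.5% paraformaldehyde after the sort. T5 cells were isolated and fixed as in T3 with 2 h at 37°C added. The treatment protocol puts those 2 h in DMEM before the isolation, on dissected muscle, while the series description puts them after it, so the order is not settled. No group was treated with an interferon or infected, as far as the labels say. Setting T3 against T0 asks what differed after isolation, and setting T5 against T3 what differed with the added 2 h. The mode of fixation also differed between T0 and the other groups and cannot be told apart from the isolation.

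Interferons are secreted proteins that cells release when sensors detect viral RNA or DNA. Type I and type II interferons bind their own receptors, whose JAK kinases phosphorylate STAT proteins. STAT complexes that contain Irf9 bind interferon-stimulated response elements (ISRE), and other STAT dimers bind gamma-activated sites (GAS). The genes switched on in this way encode antiviral effectors, the guanylate-binding and immunity-related GTPases that attack vacuoles holding microbes, and the machinery that loads peptides on MHC class I molecules for display to T cells. Quiescent stem cells of several tissues are known to keep part of this programme at a basal level.

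There were 3 T0, 4 T3 and 4 T5 libraries, with total counts of 49078859 to 67251946, 52632553 to 72638711 and 61837170 to 102347035. The 4 T5 libraries were summed by the letter in their names into 2 replicates, A and B. Libraries of the same letter were not the most alike. The mean squared difference per gene, over that of counting noise, was 108 within A and 124 within B. Between letters it ran from 18.2 to 171. The grouping therefore rests on the names alone, and the summed T5 values can hide spread between libraries. Replicates are numbered by their column. No label ties them to separate animals, and the spread behind a p-value may therefore be technical. Levels are in CPM (counts scaled to TMM-corrected library sizes). Changes are given on the log2 scale with the SE, and the test was the quasi-likelihood test of edgeR. A gene was called where its p was under 0.05 after Benjamini-Hochberg adjustment over all 31999 tested genes. The defining marker of the sorted cells, Pax7, was at 3137 to 4440 CPM in T0, at 249 to 400 CPM in T3 and at 306 and 325 CPM in T5. The whole list of 13 muscle stem cell markers was mixed from T0 to T3. There 4 were called higher and 5 lower, beside 15% and 22.9% of all genes, with a median log2 fold change of −0.13. From T3 to T5, 0 were higher and 4 lower (all genes 1.28% and 0.888%). In T5 against T0, 3 were higher and 9 lower (all genes 13.2% and 22.5%).

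A pair of libraries held most of the highest levels of these genes. T0 replicate 3 had the highest level of the T0 replicates in 33 of the 40 genes, and T3 replicate 3 the highest of the T3 replicates in 39 of 40. The shares of all genes were not counted, so this may not be particular to the 40. T0 replicate 3 also had the highest TMM factor of T0 (1.18 against 0.942 and 0.915). Its mean level of the background genes described below was the highest of T0 too (0.0816 against 0.0534 and 0.0618 CPM per kb). T3 replicate 3 was the highest of T3 in neither. Markers of other cells differed in the same libraries. In T0 replicate 3 the pan-leukocyte gene Ptprc was at 21.8 CPM against 7.29 and 6.25 CPM in the other T0 replicates, and the class II chaperone gene Cd74 at 11.5 against 1.67 and 1.56 CPM. In T3 replicate 3 the neutrophil marker list summed to 20.8 CPM against 4.69 to 10.7 CPM in the other T3 replicates, and the fibroblast gene Dcn was at 29.7 CPM against 10.3 to 10.7 CPM. Their part in the results was not tested, and values without these replicates stand beside the results that rest on them.

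**Figure D1:**
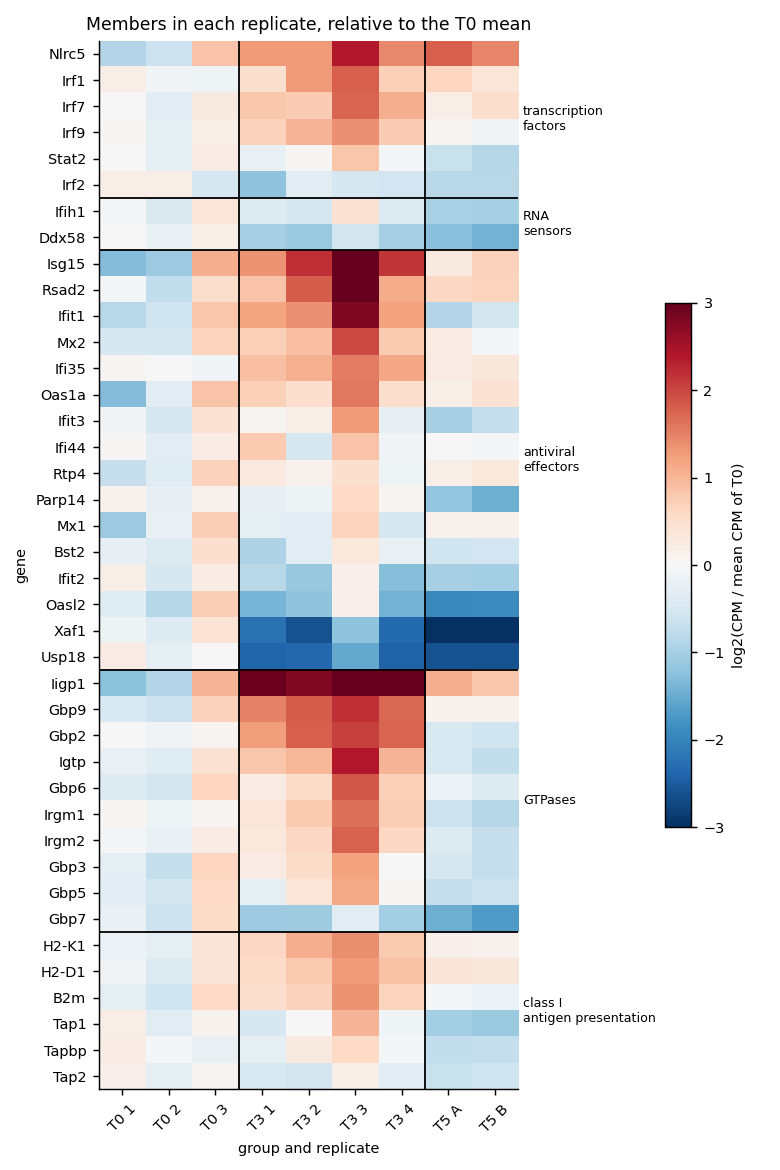
Level of each of the 40 genes in each replicate, as log2 of its CPM over the mean CPM of T0 (red higher, blue lower, scale limited to 3 either way). Rows are grouped by role and ordered by the change from T0 to T3, and columns are the 3 T0, 4 T3 and 2 T5 replicates. Most GTPase rows are red in T3 and pale or blue in T5, Usp18 and Xaf1 are blue in every T3 and T5 replicate, and T3 replicate 3 is the reddest column.

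Between T0 and T3 the genes split. Of the 40, 19 rose, 5 fell and 16 were not called. Over all genes tested, edgeR called 15% higher and 22.9% lower. The median log2 fold change of the 40 was 0.70, beside 0.05 for all genes. In 17 of the 40 every T3 replicate lay above every T0 replicate, which held for 16.2% of all genes, and in 3 every T3 replicate lay below, which held for 22% of all genes. The changes ran from −2.13 for Usp18 to 3.17 for Iigp1. By role, 4 transcription factors of 6 rose and 1 fell, 1 of 2 RNA sensors fell, 5 of 16 antiviral effectors rose and 2 fell, 7 of 10 GTPases rose and 1 fell, and 3 of 6 class I genes rose. Without T3 replicate 3 the calls were 16 higher and 7 lower. Without T0 replicate 3 they were 23 higher and 4 lower, and without both replicates 22 higher and 7 lower. The median was 0.39 without T3 replicate 3, 0.46 without T0 replicate 2 and 1.02 without T0 replicate 3. With upper quartile scaling 19 rose and 3 fell, while over all genes the share of calls that were lower moved from 60.4% to 44.7% and the median change of all genes from 0.05 to 0.32.

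Between T3 and T5 the direction was one-sided. No gene of the 40 rose, 11 fell and 29 were not called, where 1.28% of all genes were called higher and 0.888% lower. The median log2 fold change was −0.96, beside 0.05 for all genes, and 38 of the 40 estimates were below 0. In 32 of the 40 both T5 replicates lay below every T3 replicate, which held for 18.9% of all genes. The called genes were 6 of the 10 GTPases (Gbp2, Gbp9, Iigp1, Igtp, Irgm1 and Irgm2), the effectors Ifit1, Ifi35 and Parp14, the transcription factor Irf9 and the peptide transporter gene Tap1. No gene was called higher by DESeq2 either. At an unadjusted p under 0.05 edgeR gave 0 higher and 28 lower. The share of all genes at that looser threshold was not counted, and the shares above are at the adjusted one. The number called lower depended on the T5 replicates and on the test: it was 5 without T5 replicate A, 2 without T5 replicate B, 21 with DESeq2, 5 with upper quartile factors and 4 with library totals. DESeq2 added Stat2, Ifit3, Mx2, Xaf1, Gbp3, Gbp5, Gbp6, B2m, H2-K1 and Tapbp (−1.41 to −0.96). Upper quartile factors ended the calls of Irf9, Ifit1, Gbp9, Iigp1, Igtp, Irgm2 and Tap1 (−2.48 for Ifit1 to −0.96 for Irf9) and added Tapbp (−0.85), and library totals ended those of Irf9, Ifit1, Ifi35, Gbp9, Iigp1, Irgm2 and Tap1 (−2.43 for Ifit1 to −0.78 for Ifi35). The number called lower was 20 without T0 replicate 1 and 19 without T0 replicate 3. Those replicates enter this comparison only through the shared estimate of the spread, the scaling factors and the filter on low counts. Over all genes DESeq2 moved the share of calls that were lower from 40.9% to 64.6%.

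Set against T0 directly, T5 levels were higher for 1 gene, lower for 12 and not called for 27, where 13.2% of all genes were called higher and 22.5% lower. The median log2 fold change was −0.57, beside 0.18 for all genes. Both T5 replicates lay below every T0 replicate in 20 of the 40, which held for 28.4% of all genes. The gene that was higher was Nlrc5. The genes that were lower were Irf2, Stat2, Ifih1, Ddx58, Usp18, Ifit2, Oasl2, Xaf1, Parp14, Gbp7, Tap1 and Tapbp. The split moved with scaling and with the replicates used. With upper quartile factors 3 were higher and 6 lower with a median of −0.27, while 44.1% of the calls over all genes were lower in place of 62.9%. Without T0 replicate 3, 6 were higher and 11 lower, and the median was −0.18. The genes added as higher were Isg15, Rtp4, Gbp9, Iigp1 and H2-D1. Leaving out T5 replicate A, or B, left 6 lower and ended the calls of Irf2, Stat2, Ifih1, Ifit2, Tap1 and Tapbp. All 3 comparisons share samples, so their values are given side by side and not set against each other by a test.

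**Figure D2:**
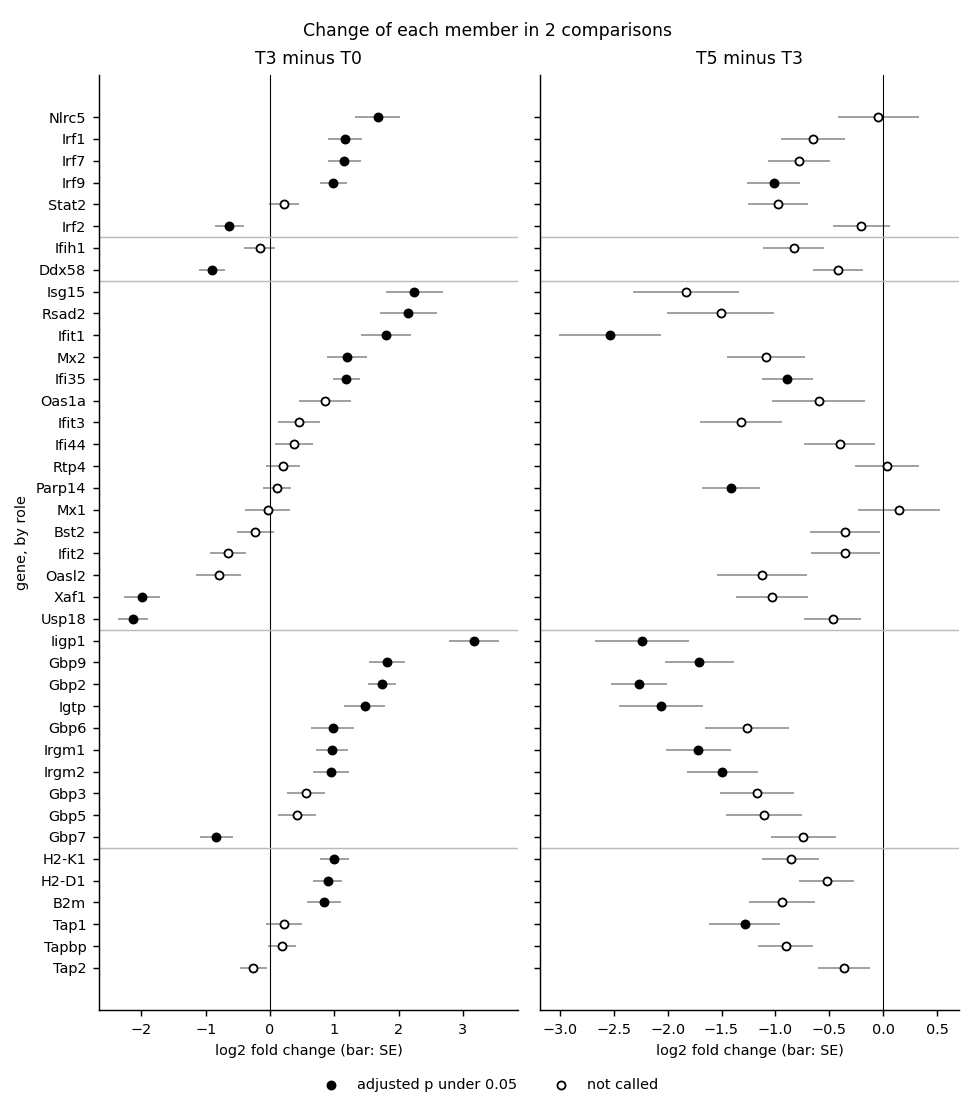
Log2 fold change of each gene (points) with its standard error (bars), for T3 minus T0 on the left and T5 minus T3 on the right, on separate axes. Filled points passed an adjusted p of 0.05 in edgeR's quasi-likelihood test. On the left 19 filled points lie above 0 and 5 below, and on the right all 11 filled points lie below 0.

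Promoter letters were compared between the genes that rose and those that fell. RefSeq promoter windows (GRCm38.p6, 250 bases before to 50 after the start) were at hand for 30 of the 40 genes, all but Nlrc5, Usp18, Mx1, Mx2, Rtp4, Parp14, Gbp6, Gbp9, Iigp1 and Tap2. The ISRE core was searched as GAAANNGAAA and the gamma-activated site as TTCNNNGAA, each on both strands and each counted on its own, so that matches may overlap. The ISRE core was present in 18 of the 30 (60%), beside 1079 of 27025 genes in the table (3.99%). The GAS letters were present in 10 of the 30 (33.3%), beside 2582 genes (9.55%). The genes were chosen as interferon-inducible, so shares above those of all genes were built into the choice and are no result of these data. Among genes that rose from T0 to T3, 8 of 14 (57.1%) held the ISRE core. Among those that fell it was 3 of 4 (75.0%), and among those not called 7 of 12 (58.3%). These matches are letters in a window and were not tested for binding.

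Of the 6 windows shown, 4 belong to genes that rose from T0 to T3 and 2 to genes that fell, so that the shared letters can be seen on both sides. Each holds 130 bases before the start and the 20 bases from the start on, printed 5′ to 3′ on the gene's strand, with ISRE matches in capitals. Isg15 (chr4:156200799-156200948, minus strand) holds 3 overlapping matches, 78, 72 and 66 bases before the start. Ifit1 (chr19:34640759-34640908, plus strand) holds 2, at 104 and 85 bases before it. Gbp2 (chr3:142620533-142620682, plus strand) holds 1 at 59 bases, and Igtp (chr11:58199426-58199575, plus strand) 1 at 34 bases before the start. Of the genes that fell, Gbp7 (chr3:142530206-142530355, plus strand) holds 1 at 53 bases before the start, and Ddx58 (chr4:40239806-40239955, minus strand) 1 that begins 2 bases after it.
Isg15: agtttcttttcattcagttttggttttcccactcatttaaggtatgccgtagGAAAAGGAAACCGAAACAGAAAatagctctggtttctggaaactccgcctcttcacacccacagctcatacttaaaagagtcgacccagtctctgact
Ifit1: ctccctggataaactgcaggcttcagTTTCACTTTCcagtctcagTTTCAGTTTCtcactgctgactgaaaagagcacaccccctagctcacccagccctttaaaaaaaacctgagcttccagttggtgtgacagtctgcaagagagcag
Gbp2: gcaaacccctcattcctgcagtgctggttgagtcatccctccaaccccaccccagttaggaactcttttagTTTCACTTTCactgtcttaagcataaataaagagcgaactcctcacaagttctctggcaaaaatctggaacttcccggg
Igtp: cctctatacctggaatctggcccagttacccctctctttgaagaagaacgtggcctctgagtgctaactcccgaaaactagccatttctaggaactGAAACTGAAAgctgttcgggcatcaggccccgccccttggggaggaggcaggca
Gbp7: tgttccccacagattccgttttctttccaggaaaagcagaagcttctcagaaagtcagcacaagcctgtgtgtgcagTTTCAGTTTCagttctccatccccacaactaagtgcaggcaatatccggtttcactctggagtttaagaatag
Ddx58: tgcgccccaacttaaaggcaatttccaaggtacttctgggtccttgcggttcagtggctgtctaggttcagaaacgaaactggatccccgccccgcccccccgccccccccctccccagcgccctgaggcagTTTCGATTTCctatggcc

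The transcription factors were split among themselves. Irf1 (chromosome 11, 53770014 to 53778374, GRCm38), an activator of interferon and MHC class I genes, was at 16.6, 13.7 and 13.3 CPM in T0, at 20.2, 35.4, 50.6 and 23.8 CPM in T3 and at 22.8 and 18.6 CPM in T5. Every T3 replicate lay above every T0 replicate, and the rise was 1.16 ± 0.26 (adjusted p = 0.000894). Both summed T5 replicates lay above T0 as well, though the single T5 libraries ran from 16.3 to 27.2 CPM and so overlapped T0. Neither T5 minus T3 (−0.65 ± 0.29, adjusted p = 0.342) nor T5 minus T0 (0.51 ± 0.30, adjusted p = 0.193) was called. T5 was called higher than T0 with only those groups in the fit (0.71) and with upper quartile factors (0.86). Irf2 (chromosome 8, 46739732 to 46847458), which binds the sites of Irf1 and opposes it at many genes, was at 247, 247 and 152 CPM in T0, at 92.6 to 169 CPM in T3 and at 120.4 and 121 CPM in T5 (single T5 libraries 99.2 to 145 CPM). It fell by 0.63 from T0 to T3 (SE 0.23, adjusted p = 0.0332), with overlapping replicates. That call was lost in 6 of the 9 fits that left out 1 replicate (without T0 replicate 1 or 2, T3 replicate 1 or 4, or either T5 replicate), where the fall was 0.48 to 0.65, and with upper quartile factors (−0.31). Per kb of exonic length Irf2 was the second most abundant of the 40 genes in T0, at 29.1 CPM per kb, after B2m at 37.6 CPM per kb.

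Irf9, the DNA-binding subunit of the ISRE-binding complex, was at 10.9, 8.64 and 11.7 CPM in T0, at 16.9, 21, 26.9 and 17.6 CPM in T3 and at 10.8 and 9.62 CPM in T5. The T3 replicates lay above all others, and T0 and T5 overlapped. It rose by 0.99 ± 0.22 from T0 to T3 (adjusted p = 0.000691) and fell by 1.02 from T3 to T5 (SE 0.25, adjusted p = 0.0290). The fall was not called without T3 replicate 2 or 3 or either T5 replicate, at −0.86 to −1.10. Its partner Stat2 was not called from T0 to T3 (0.21 ± 0.24, adjusted p = 0.537), and was lower in T5 than in T0 (−0.76 ± 0.29, adjusted p = 0.0433). That last call was lost without T0 replicate 3 (−0.61), T3 replicate 2 or 4, or either T5 replicate. Irf7, which amplifies the type I interferon response, was low throughout, at 2.08 to 3.16 CPM in T0 and 4.41 to 8.76 CPM in T3, and rose by 1.16 ± 0.26 (adjusted p = 0.000870).

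Nlrc5, the activator that binds promoters of MHC class I genes, was the one gene of the 40 called higher in T5 than in T0. Nlrc5 shares exonic bases with 9330175E14Rik in the annotation, so its counts may hold reads of that gene. It was at 4.93, 5.85 and 16.6 CPM in T0, at 22.3, 22, 48.0 and 24.8 CPM in T3 and at 31.7 and 25.0 CPM in T5. No replicate of T3 or T5 overlapped T0, and T3 and T5 overlapped each other. It rose by 1.67 ± 0.35 from T0 to T3 (adjusted p = 0.000414) and was higher by 1.63 ± 0.39 in T5 than in T0 (adjusted p = 0.00194). T5 minus T3 was −0.05 ± 0.37 (adjusted p = 0.966). With T3 left out of the fit the difference from T0 was 1.73 and was not called.

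Both RNA sensors were lower in T5 than in T0. Ddx58, which encodes RIG-I, was at 22.4, 19.4 and 25.4 CPM in T0, at 11.2, 10.4, 15.3 and 11.2 CPM in T3 and at 9.46 and 8.45 CPM in T5. The 3 groups did not overlap in this order. It fell by 0.90 from T0 to T3 (SE 0.20, adjusted p = 0.000861), and T5 was lower than T0 by 1.32 on the log2 scale (−1.32 ± 0.25, adjusted p = 0.000214). Ifih1, which encodes MDA5, was at 14.9 to 25.9 CPM in T0, 14.0 to 27.4 CPM in T3 and 10 to 10.2 CPM in T5. It was called only for T5 minus T0 (−0.99 ± 0.30, adjusted p = 0.0110), and not without either T5 replicate.

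Among the antiviral effectors, Isg15 and Usp18 moved in opposite directions. Isg15, a ubiquitin-like protein that is conjugated to other proteins, was at 0.238, 0.275 and 1.24 CPM in T0, at 1.49, 2.66, 4.84 and 2.59 CPM in T3 and at 0.701 and 0.936 CPM in T5. Each T3 replicate lay above all T0 and T5 replicates. The rise was 2.24 ± 0.45 (adjusted p = 0.000254), and T5 minus T3 was −1.83 ± 0.49 with an adjusted p of 0.0502. Without T0 replicate 3 the rise was 3.49, and T5 was called lower than T3 (−1.83) and higher than T0 (1.66). Usp18 (chromosome 6, 121245906 to 121270917), the protease that removes Isg15 and also damps signalling at the type I receptor, was at 30.4, 21.5 and 25.4 CPM in T0, at 4.87, 5.02, 8.82 and 4.77 CPM in T3 and at 4.23 and 4.24 CPM in T5. The T0 replicates lay above all others. It fell by 2.13 from T0 to T3 (SE 0.23, adjusted p = 1.34e-07), a 4.38-fold change. T5 minus T3 was −0.47 ± 0.27 (adjusted p = 0.475).

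Ifit1, which binds viral RNA that lacks the host's cap marks, was at 1.49, 1.75 and 4.68 CPM in T0, at 6.03, 6.79, 18.4 and 6.14 CPM in T3 and at 1.43 and 1.81 CPM in T5. It rose by 1.81 ± 0.39 (adjusted p = 0.000620) and fell by 2.53 from T3 to T5 (SE 0.47, adjusted p = 0.00323), the lowest estimate of the 40 genes in that comparison. The neighbouring Ifit2 and Ifit3 were not called at the first step. Ifit2 was at 9.72 to 15.8 CPM in T0 and 5.65 to 15.2 CPM in T3 (−0.65 ± 0.28, adjusted p = 0.0703), and Ifit3 at 0.893 to 1.73 and 1.07 to 3.11 CPM (0.46 ± 0.33, adjusted p = 0.318). Without T3 replicate 3 Ifit2 was called lower at this step (−1.07).

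Rsad2, which encodes viperin, was at 2.21, 1.39 and 3.32 CPM in T0, at 4.14, 8.08, 23.9 and 4.95 CPM in T3 and at 3.56 and 3.67 CPM in T5. It rose by 2.15 ± 0.44 (adjusted p = 0.000394), and T3 replicate 3 lay well above the other T3 replicates. Without it the rise was 1.31. Ifi35 rose by 1.19 ± 0.21 from T0 to T3 (adjusted p = 6.09e-05) and fell by 0.89 from T3 to T5 (SE 0.24, adjusted p = 0.0471). The fall of Ifi35 was lost in 7 of the 9 fits that left out 1 replicate, all but those without T0 replicate 1 or 3, at −0.75 to −0.97. Mx2, annotated in this strain's reference as a polymorphic pseudogene, rose by 1.19 ± 0.31 (adjusted p = 0.00370). Its relative Mx1, a dynamin-like GTPase that blocks influenza virus and is known to be disrupted in C57BL/6 mice, was at 0.541 to 1.94 CPM in all replicates and was called in no comparison.

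Xaf1 (chromosome 11, 72301629 to 72313733), which encodes a pro-apoptotic partner of the inhibitor XIAP, showed the largest T5 minus T0 difference of the 40 genes. It was at 14.3, 12.1 and 21.1 CPM in T0, at 3.33, 2.57, 6.89 and 3.12 CPM in T3 and at 1.91 and 1.98 CPM in T5. The 3 groups did not overlap. It fell by 1.99 from T0 to T3 (SE 0.28, adjusted p = 4.16e-06), and T5 minus T0 was −3.02 ± 0.38 (adjusted p = 1.70e-06), an 8.12-fold difference. T5 minus T3 was −1.03 ± 0.33 (adjusted p = 0.131). Oasl2, of the oligoadenylate synthetase-like family, was also lower in T5 than in T0 (−1.92 ± 0.45, adjusted p = 0.00156), at 4.69 to 14.2 CPM in T0 and 2.23 to 2.27 CPM in T5. Its T3 minus T0 difference was called without T3 replicate 3 (−1.34).

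Parp14, an ADP-ribosyltransferase, overlapped between T0 and T3 and was lower in T5. It was at 46.1, 35.9 and 46.4 CPM in T0, at 36.1, 38.8, 65.2 and 44.4 CPM in T3 and at 19.1 and 15.5 CPM in T5. T3 minus T0 was not called (0.11 ± 0.22, adjusted p = 0.751), and both T5 replicates lay below them. It fell by 1.41 from T3 to T5 (SE 0.27, adjusted p = 0.00354) and was lower in T5 than in T0 (−1.30 ± 0.27, adjusted p = 0.000572). The fall from T3 was not called without T5 replicate A or without T5 replicate B, at −1.57 and −1.27. The remaining effectors, Oas1a, Bst2 (tetherin, which holds budding virus at the cell surface), Ifi44 and Rtp4, were called in no comparison. Their T3 minus T0 estimates ran from −0.23 for Bst2 to 0.85 for Oas1a. When T0 replicate 3 was left out, Oas1a (1.62) and Rtp4 (0.73) were called higher in T3 than in T0, and Rtp4 higher in T5 than in T0 (0.76).

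Of the 10 GTPases, 7 rose from T0 to T3, beside 15% of all genes, and 6 fell from T3 to T5, beside 0.888%. Guanylate-binding proteins (Gbp) coat vacuoles and cytosolic bacteria, and immunity-related GTPases (Iigp1, Igtp, Irgm1, Irgm2) act on the membranes of parasite vacuoles, with the Irgm proteins controlling the others. Their median log2 change was 0.97 from T0 to T3 and −1.60 from T3 to T5. In all 10 both T5 replicates lay below every T3 replicate, which held for 18.9% of all genes.

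Iigp1 had the highest rise of all 40 genes. It was at 1.84, 2.35 and 8.73 CPM in T0, at 32.9, 29.6, 52.5 and 41.8 CPM in T3 and at 9.09 and 7.54 CPM in T5. The T3 replicates lay above all others, and T5 overlapped T0 replicate 3. It rose by 3.17 ± 0.39 (adjusted p = 7.91e-07), a 9-fold change, and fell by 2.24 from T3 to T5 (SE 0.44, adjusted p = 0.00499). T5 minus T0 was 0.93 ± 0.41 (adjusted p = 0.0849). It was 1.99 and called without T0 replicate 3, and was called also with no filter on low counts (0.94) and with the 4 T5 libraries as replicates (0.91). The fall was not called without T5 replicate B (−2.11).

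Gbp2 (ENSMUSG00000028270.12, chromosome 3, 142620602 to 142638008) showed no overlap between any 2 groups. It was at 12.8, 11.9 and 13.5 CPM in T0, at 30.5, 44.3, 52.9 and 42.6 CPM in T3 and at 9.3 and 8.39 CPM in T5, or 12.7 ± 0.823 (SD, n = 3), 42.6 ± 9.21 (SD, n = 4) and 8.85 ± 0.641 (SD, n = 2). It rose by 1.74 ± 0.22 (adjusted p = 8.02e-07) and fell by 2.27 (SE 0.26, adjusted p = 1.18e-05). T5 minus T0 was not called (−0.53 ± 0.25, adjusted p = 0.107). That difference was called with the 4 T5 libraries as replicates (−0.54), and without T0 replicate 3 and T3 replicate 3 together (−0.47). Per kb of exonic length the level of Gbp2 was 5.07 CPM per kb (T0), 16.9 (T3) and 3.52 (T5).

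Its neighbours on the same stretch of chromosome 3 did not all move with it. Gbp7, whose annotated gene starts at 142530342, was at 10.1, 7.5 and 16.9 CPM in T0, at 5.41, 5.48, 9.28 and 5.69 CPM in T3 and at 4.19 and 3.54 CPM in T5. It fell by 0.83 from T0 to T3 (SE 0.26, adjusted p = 0.0121) with overlapping replicates. Without T0 replicate 3 the fall was 0.44 and was not called, nor was it with upper quartile factors (−0.61). T5 minus T0 was −1.58 ± 0.33 (adjusted p = 0.000481). Gbp3 (0.56 ± 0.30, adjusted p = 0.151) and Gbp5 (0.42 ± 0.30, adjusted p = 0.316) were not called from T0 to T3, and both were called higher without T0 replicate 3 (1.05 and 0.86). A direct test of Gbp2 against these neighbours was not made.

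On chromosome 5, Gbp9 was at 6.71, 6.01 and 15.0 CPM in T0, at 26.1, 32.3, 42.4 and 30.4 CPM in T3 and at 9.99 and 10.1 CPM in T5. The T3 replicates lay above all others. It rose by 1.82 ± 0.28 (adjusted p = 1.13e-05) and fell by 1.71 (SE 0.32, adjusted p = 0.00355), though not without T5 replicate A or B (−1.70 and −1.72). Gbp9 overlaps Gbp4 and Gbp8 in the annotation, and both were highest in T3: Gbp4 was at 2.73 to 9.29, 16.8 to 29.1 and 4.82 to 5.02 CPM, and Gbp8 at 8.84 to 19.0, 31.2 to 48.8 and 15.0 CPM. Gbp9 shares exonic bases with both, so these 3 genes may share reads and their changes may not be separate. Gbp6 rose by 0.97 ± 0.33 (adjusted p = 0.0233) with overlapping replicates, and the call was lost without T0 replicate 1 or 2 (0.81 and 0.76) or T3 replicate 3 (0.51), while without T0 replicate 3 the rise was 1.46.

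Irgm1 (chromosome 11, 48861968 to 48871683) was at 12.7, 11.2 and 12.8 CPM in T0, at 15.7, 21, 38.2 and 20.3 CPM in T3 and at 7.78 and 6.73 CPM in T5. No groups overlapped, and T5 was the lowest, though T5 minus T0 was not called (−0.76 ± 0.30, adjusted p = 0.0525). That difference was called with DESeq2 (−0.83), no filter (−0.75) and the 4 T5 libraries (−0.78), and without T3 replicate 1 or 3 (−0.75 in both). Irgm1 rose by 0.96 ± 0.25 (adjusted p = 0.00342) and fell by 1.71 (SE 0.30, adjusted p = 0.00177), not called without T5 replicate B (−1.62). Igtp and Irgm2 lie on top of each other on chromosome 11 (58199556 to 58207591 and 58199618 to 58222782) and may share reads. Igtp rose by 1.47 ± 0.32 (adjusted p = 0.000736) and fell by 2.06 (SE 0.39, adjusted p = 0.00340), and Irgm2 rose by 0.95 ± 0.28 (adjusted p = 0.00826) and fell by 1.5 (SE 0.33, adjusted p = 0.0133). Without T3 replicate 3 the rise of Irgm2 was 0.53 and not called, and those of Igtp and Irgm1 were 0.95 and 0.64. The falls were not called without T5 replicate B (Igtp −1.93, Irgm2 −1.36), nor that of Irgm2 without T5 replicate A (−1.65).

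**Figure D3:**
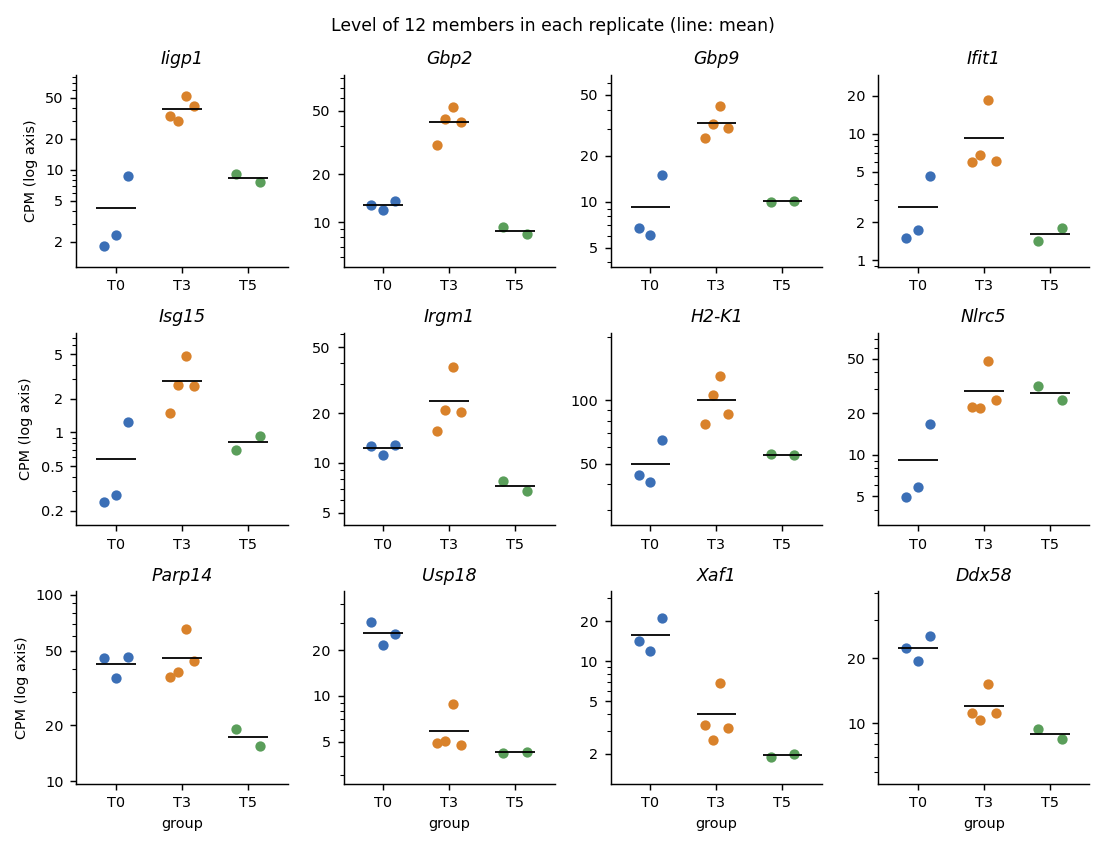
CPM of 12 of the genes in each replicate, on log axes, with the group mean as a line (3 T0, 4 T3 and 2 T5 replicates). Iigp1, Gbp2, Gbp9, Ifit1, Isg15, Irgm1 and H2-K1 are highest in T3, Nlrc5 stays high in T5, Parp14 is low in T5, and Usp18, Xaf1 and Ddx58 are highest in T0.

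Among MHC class I genes, the 3 that encode the molecule itself rose from T0 to T3. The heavy chain gene H2-K1 (chromosome 17, 33996017 to 34000347) was at 44.3, 40.7 and 64.8 CPM in T0, at 76.8, 106, 131 and 86.5 CPM in T3 and at 55.5 and 54.8 CPM in T5. The T3 replicates lay above all others. It rose by 1.00 ± 0.23 (adjusted p = 0.00101), and T5 minus T3 was −0.86 ± 0.26 (adjusted p = 0.101). H2-D1, the other heavy chain gene, was at 30.9 to 54.2, 60.3 to 99.6 and 52.3 to 54.1 CPM and rose by 0.90 ± 0.23 (adjusted p = 0.00267). Class I heavy chain genes are close copies of one another, and how reads that match several of them were counted is not given in the sources used here.

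B2m, the invariant light chain of every class I molecule, was at 26.5, 21.3 and 49.1 CPM in T0, at 46.2, 51.8, 82.2 and 51.4 CPM in T3 and at 31.6 and 28.7 CPM in T5. T0 replicate 3 lay within the T3 range. B2m rose by 0.84 ± 0.26 (adjusted p = 0.0128), a call lost without T0 replicate 2 (0.61) or T3 replicate 3 (0.62). Without T0 replicate 3 the rise was 1.28. In every group it had the highest level per kb of the 40 genes.

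None of the 3 loading genes was called between T0 and T3. Tap1 and Tap2, the paired subunits of the transporter that carries peptides into the endoplasmic reticulum, and Tapbp (tapasin), which bridges the transporter and the class I molecule, had T3 minus T0 estimates of 0.22 ± 0.28, −0.26 ± 0.21 and 0.18 ± 0.22. With upper quartile factors Tapbp was called higher in T3 (0.48). Tap1 was at 8.12, 5.56 and 7.57 CPM in T0, at 5.05, 7.07, 14.3 and 6.45 CPM in T3 and at 3.49 and 3.26 CPM in T5, with both T5 replicates below all others. It fell by 1.28 from T3 to T5 (SE 0.33, adjusted p = 0.0388), a call lost without T3 replicate 3 (−0.88) or either T5 replicate. Against T0, Tap1 was lower in T5 by 1.07 on the log2 scale (−1.07 ± 0.34, adjusted p = 0.0158) and Tapbp by 0.73 (−0.73 ± 0.26, adjusted p = 0.0353). Neither of these was called without T5 replicate A or B, or with upper quartile factors (−0.74 and −0.37). A test of heavy chains against the loading machinery was not made.

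The rest of the pathway was read from lists of ligands, receptors, sensors and targets. Of 21 interferon ligand genes only Ifnk and Ifng had enough counts to be tested. Their list summed to 1.54 to 1.89 CPM in T0, 0.877 to 1.78 CPM in T3 and 1.11 to 1.78 CPM in T5. Ifnk fell by 2.33 from T0 to T3 (adjusted p = 3.89e-05), from 0.643 to 1.08 CPM to 0.108 to 0.261 CPM, and Ifng was at 0.103 to 0.493 CPM in all replicates and was not called. Ifnk overlaps Mob3b in the annotation and had 6 to 63 counts in the T0 and T3 libraries.

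Of 14 receptor and JAK-STAT genes, 5 rose and 6 fell from T0 to T3, where 15% of all genes rose and 22.9% fell. None was called from T3 to T5 (all genes 1.28% higher and 0.888% lower), and 2 were higher and 7 lower in T5 than in T0 (all genes 13.2% and 22.5%). The type I receptor chain Ifnar1 fell by 1.27 (51.0 and 54.0 CPM in T0 replicates 2 and 1, 31.7 in replicate 3, 17.6 to 20.1 CPM in T3, adjusted p = 2.28e-05), and the type II receptor chain Ifngr1 by 1.18 (adjusted p = 4.92e-05). The kinase gene Tyk2 fell by 1.99 (adjusted p = 1.05e-07), while the kinase gene Jak1 rose by 1.54 (adjusted p = 5.22e-06). In the annotation Tyk2 overlaps 1700084C06Rik, and Jak1 overlaps Raver2 and other genes. Socs1, an interferon-inducible inhibitor of JAK kinases, rose by 2.26 from 0.883 to 1.69 CPM to 5.01 to 7.42 CPM (adjusted p = 2.78e-07) and was still at 5.15 and 5.25 CPM in T5. The phosphatase gene Ptpn2, which acts on JAK and STAT proteins, rose by 1.06 (adjusted p = 0.000339).

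Of 18 sensor and adaptor genes, 9 rose and 5 fell from T0 to T3, beside 15% and 22.9% of all genes. Mavs, the adaptor of Ddx58 and Ifih1, fell by 2.08 (15.3 to 25.8 CPM in T0, 4.20 to 5.57 CPM in T3, adjusted p = 6.76e-08). Irf3, the factor it activates, fell by 1.10 (adjusted p = 0.000182). The others that fell were the RNA receptor gene Tlr3 (−1.32), its adaptor gene Ticam1 (−0.73) and the kinase gene Ikbke (−0.995). Among those that rose were Tmem173 (STING), the adaptor of DNA sensing (1.51, adjusted p = 5.84e-06), the nucleic acid sensor gene Zbp1 (1.75, adjusted p = 3.08e-05) and the Toll-like receptor adaptor gene Myd88 (1.57, adjusted p = 8.81e-06). In the annotation Irf3 overlaps Bcl2l12, Tlr3 overlaps Gm45542, Ikbke overlaps Gm28913 and Gm28914, and Myd88 overlaps Slc22a14 and Acaa1a. From T3 to T5, where 0.888% of all genes fell, one gene of this list was called, Trim25, a ubiquitin ligase that activates RIG-I. It fell by 1.36 (adjusted p = 0.00286).

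Of 54 further interferon-stimulated genes, 13 rose and 16 fell from T0 to T3, none rose and 6 fell from T3 to T5, and 3 were higher and 22 lower in T5 than in T0. Over all genes the shares were 15% and 22.9%, 1.28% and 0.888%, and 13.2% and 22.5% in the same order. Among those that rose and then fell were Slfn5 (2.00, then −1.41), Gbp4 (2.04, then −2.11), Gbp8 (1.65, then −1.37) and Helz2 (1.30, then −1.17). Among those that fell at the first step, Trim21, an antibody receptor in the cytosol, fell by 1.78 (adjusted p = 1.30e-06) and Pml, the organiser of PML nuclear bodies, by 1.38 (adjusted p = 6.96e-06). Ifitm3, which blocks virus entry, rose by 1.71 (adjusted p = 1.29e-06). The chemokine gene Cxcl10 was at 0.0649 to 0.328 CPM in T0, 0.454 to 2.65 CPM in T3 and 2.17 and 3.25 CPM in T5, with T5 minus T0 at 3.56 (adjusted p = 3.36e-05) and T5 minus T3 not called (1.27, adjusted p = 0.210). In the annotation Cxcl10 overlaps Art3, Slfn5 overlaps Slfn5os, Pml overlaps Mir6385, and Gbp4 and Gbp8 overlap each other and Gbp9.

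Of 20 class I accessory genes, 2 rose and 5 fell from T0 to T3, beside 15% and 22.9% of all genes, and 4 were higher and 10 lower in T5 than in T0, beside 13.2% and 22.5%. The class I gene H2-Q4 rose by 1.88 (10.2 to 17.2 CPM, then 44.8 to 60.3 CPM, adjusted p = 3.63e-07) and stayed at 47.1 and 47.6 CPM in T5, and Rfx5, a subunit of the complex with which Nlrc5 works at class I promoters, fell by 1.27 (adjusted p = 7.15e-05). The immunoproteasome gene Psmb9 fell by 1.34 (adjusted p = 0.000611) and overlaps Tap1 in the annotation. From T3 to T5, where 1.28% of all genes rose, one gene of this list rose, Pdia3 (1.31, adjusted p = 0.000827), a folding enzyme of the peptide-loading complex. Of 11 class II genes 1 rose (H2-Oa, 1.99) and 1 fell (Ciita, −0.90) from T0 to T3, and none was called from T3 to T5. Like Psmb9, H2-Q4, Rfx5, Pdia3, H2-Oa and Ciita overlap other annotated genes (Gm11131, B230398E01Rik, Catsper2, BC051537 and Dexi in that order).

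Markers of other cells moved with part of these results. In bulk RNA fewer cells of a type and less RNA per cell cannot be told apart. Of 12 endothelial markers 7 rose from T0 to T3, beside 15% of all genes, and 6 fell from T3 to T5, beside 0.888%. In T5 against T0, where 13.2% of all genes were higher and 22.5% lower, none of these markers was called. Their sum was 288 to 339 CPM in T0, 509 to 607 CPM in T3 and 305 to 307 CPM in T5. Without Tek, which was at 118 to 292 CPM in all replicates, the sums were 132 to 221, 308 to 324 and 162 to 174 CPM. Pecam1 was at 18.2, 24.7 and 33.5 CPM in T0, at 62.3 to 69.9 CPM in T3 and at 32.7 and 34.9 CPM in T5, while Vwf, another defining marker, was at 12.1 to 23.4 CPM in T0, 14.5 to 18.3 CPM in T3 and 16.0 to 16.1 CPM in T5. No marker of the list was at 0 in every replicate. Their part in the rise and fall of the interferon-inducible genes was not tested.

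Of 18 monocyte, macrophage and dendritic cell markers 5 rose and 1 fell from T0 to T3, beside 15% and 22.9% of all genes. From T3 to T5, where 1.28% of all genes rose and 0.888% fell, none of these markers was called. Their sum was 108 to 121 CPM in T0, 275 to 341 CPM in T3 and 285 to 288 CPM in T5, with Cx3cr1, which overlaps Csrnp1, at 55.3 to 86.3, 218 to 288 and 222 to 232 CPM. Without it the sums were 31.4 to 65.7, 47.7 to 72.4 and 53.5 to 66.5 CPM, which overlap. Lymphocyte markers summed to 8.22 to 17.5, 9.51 to 13.2 and 12.3 to 13.0 CPM, with 1 of 13 tested higher in T3 than in T0 and none called otherwise. None of 9 neutrophil markers was called in any comparison. Of 12 myofibre markers 8 rose and 1 fell from T0 to T3 and 4 fell from T3 to T5, with sums of 129 to 148, 169 to 241 and 167 to 171 CPM. From T0 to T3, 2 of 11 fibroblast and fibro-adipogenic progenitor markers rose and 2 fell, 1 of 8 pericyte and smooth muscle markers rose and 4 fell, and 1 of 6 erythroid markers fell. The shares of all genes given above (15% and 22.9%) apply to these lists as well. The 11 class II genes, which antigen-presenting cells express, summed to 26.6 to 46.4, 20.9 to 36.5 and 27.5 to 31 CPM. The part of these cells in the results was not tested.

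**Figure D4:**
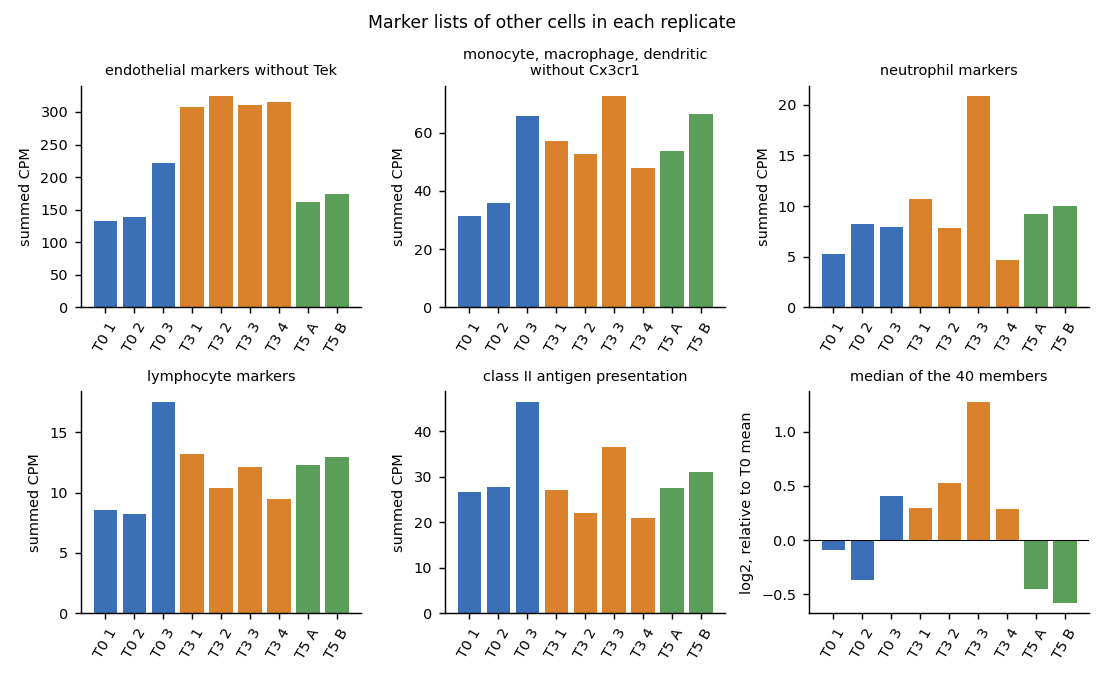
Summed CPM of marker lists of other cells and of the class II genes in each replicate, and, at the lower right, the median over the 40 genes of log2 CPM over the T0 mean. The endothelial sum without Tek is highest in the 4 T3 replicates (308 to 324 CPM), and the median of the 40 genes is highest in T3 replicate 3 (1.28) and lowest in T5 replicate B (−0.58).

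The levels themselves were low for many of the genes. As a background, 1332 genes of receptor and defensin families were taken by name as likely silent. Whether muscle uses any of them was not checked. Their mean levels were 0.0534 to 0.0838 CPM per kb in the replicates. Of the 40 genes 25 were at least 10 times above that background in every replicate, and 15 were below 10 times in at least 1, among them Isg15, Ifit1, Iigp1, Irf7 and Tap1. Of the 40 genes 19 overlap another annotated gene, and 17 share exonic bases with one. These 17 are Irf1, Irf7, Irf9, Nlrc5, Usp18, Ifi35, Rtp4, Parp14, Gbp2, Gbp6, Gbp7, Gbp9, Igtp, Irgm2, Tap1, Tap2 and Tapbp. Over the 21 without an overlap, 8 rose and 2 fell from T0 to T3 (all genes 15% and 22.9%), with a median change of 0.46 (all genes 0.05). From T3 to T5, 3 of the 21 fell (all genes 0.888%). In T5 against T0, 0 of the 21 were higher and 6 lower (all genes 13.2% and 22.5%).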

How the data were processed

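Directional libraries of total RNA from the fixed, sorted cells were read as 65-bp single ends, per the labels' protocols. The deposited file holds raw read counts for 48709 genes in 11 libraries. Per the submitters' processing notes, the authors used the build GRCm38, featureCounts 1.4.6-p3, STAR 2.5.0a, DESeq2 1.12.3 and R 3.3.1, with no roles given, and the annotation and strand setting are not given in the sources used here. Gene IDs matched GENCODE vM21 (GRCm38) for 48349 genes and not for 360. The counts hold reads of both strands: the count of Tsix was 1.004 to 1.014 times that of Xist, which it covers on the other strand. Genes that overlap another gene are therefore uncertain.

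Column names give the group, but their numbers match no letter of the sample titles. The 2 T5 libraries of each letter were added up. edgeR 4.0.16 (R 4.3.3) was fitted to all genes and all 3 groups, with TMM factors, filterByExpr, no covariate and the two-sided quasi-likelihood F test. The p-values were adjusted by Benjamini-Hochberg over 31999 genes, and the SE is the absolute log2 fold change over the root of F. The code was tested on simulated data. No p was taken over the list.

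The 40 genes and all other lists were chosen with earlier results of these data known. All 40 genes are named. From each pathway list the rule names up to 4 tested genes with the smallest p in a comparison and called genes that go against the majority of their list, and from marker lists the summed level and defining markers. Cd74 and some of the markers (Dcn, Tek, Cx3cr1) were named after their values were seen, and some of the genes that the rule names are not reported here. Alternatives were DESeq2 1.42.0, other scaling factors, no filter, only the compared groups, 4 T5 libraries, a replicate block, genes without an overlapping gene, and leaving out each replicate. Leaving out T0 replicate 3 and T3 replicate 3 together was chosen after seeing the data.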

Additional observations from a re-analysis of the deposited data

Results flagged for a closer look

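In 13 of the 40 genes T3 replicate 3 lay apart from the other 3 T3 replicates by Dixon's criterion (its gap to the next replicate took more of the group's range than the critical value allows). The nominal rate of the criterion is about 1 in 20 groups, for whichever replicate lies apart. The share of all genes in which T3 replicate 3 lies apart was not counted, so this may not be particular to the 40. The genes are not independent, since they were measured in the same library. Among the transcription factors and sensors, T3 replicate 3 stood at 48.0 CPM for Nlrc5 (next 24.8), 27.4 CPM for Ifih1 (next 15.5) and 15.3 CPM for Ddx58 (next 11.2). Among the effectors it stood at 8.82 CPM for Usp18, 18.4 CPM for Ifit1, 9.48 CPM for Oasl2, 1.43 CPM for Oas1a, 1.85 CPM for Mx1 and 19.9 CPM for Mx2. Among the GTPases it stood at 9.28 CPM for Gbp7, 23.2 CPM for Igtp and 33.5 CPM for Irgm2, and for B2m at 82.2 CPM (next 51.8). The same library had the highest sum of neutrophil markers (20.8 CPM), and the part of these cells was not tested. The genes that stood apart include some that rose from T0 to T3 (Ifit1, Nlrc5, Igtp) and some that fell (Usp18, Ddx58, Gbp7).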

How the results depend on the processing

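No gene of the 40 called in a comparison changed sign under any alternative run. The 24 calls from T0 to T3 shared 21 to 24 genes with every alternative over all 40 genes. Leaving out 1 replicate, or T0 replicate 3 and T3 replicate 3 together, gave 16 to 23 higher and 4 to 7 lower from T0 to T3, 2 to 22 lower from T3 to T5, and 1 to 10 higher and 6 to 15 lower in T5 than in T0, with a T5 minus T0 median of −0.68 to −0.18. The count lower from T3 to T5 (11) was 21 with DESeq2, 5 with upper quartile factors, 4 with library totals, 24 with no filter on low counts, 19 with only the compared groups and 26 with the 4 T5 libraries as replicates. Upper quartile factors gave 3 lower in T3 than in T0, and 3 higher and 6 lower in T5 than in T0. No filter gave 2 higher in T5 than in T0, and so did the 4 T5 libraries. Over the 21 genes without an overlapping gene the counts were 8 higher and 2 lower (T3 minus T0), 3 lower (T5 minus T3), and 0 higher and 6 lower (T5 minus T0). The shares of all genes were 15% and 22.9%, 0.888%, and 13.2% and 22.5% in the same order. Upper quartile factors moved the median of all genes from 0.18 to 0.51 for T5 minus T0.

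With the column number as a replicate block for T0 and T3, 21 were higher and 3 lower. T0 and T3 replicates of the same number correlated at −0.237, 0.420 and 0.328 in their deviations from the group means. Replicates of unlike number correlated at −0.489 to 0.510. Deviations from the means of so few replicates constrain each other, so whether the numbers pair the samples is not settled. The columns of T5 carry no such number. With 2 replicates in T5, leaving 1 out takes its spread from the other groups. Genes at a few CPM, such as Isg15, Oas1a and Mx1, are limited by their low counts.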
